A study of Mus musculus with 4 samples.

Results

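Eph receptors are receptor tyrosine kinases, and their ligands, the ephrins, are bound to the surface of neighbouring cells, so that contact between cells can send signals into both. Type A ephrins are held by a lipid anchor and type B ephrins span the membrane. In the intestinal crypt, the pocket of epithelium with stem cells at its base, Wnt signalling keeps EphB2 and EphB3 high near the base while type B ephrins are higher in the differentiated cells above, and this opposition is known for keeping dividing and differentiated cells in their places. The DNA methylation of 9 genes of this system was described here: the receptors Ephb1, Ephb2, Ephb3, Ephb4, Ephb6 and Epha2 and the ligands Efnb2, Efnb3 and Efna1. They were taken by name, all lie on autosomes, and they are 9 of 21410 autosomal protein-coding genes.

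Methylation came from whole-genome bisulfite sequencing (WGBS), in which unmethylated cytosines are converted and methylated ones are read as C, in cells sorted from the mouse colon at birth (P0) and at postnatal day 21 (P21), the end of suckling. Intestinal stem cells (ISCs) were positive for EGFP from an Lgr5-EGFP-CreER knock-in allele, which reads the Lgr5 gene, and differentiated cells were negative for EGFP and positive for the epithelial surface protein EpCAM. All mice were untreated offspring of reporter mice and wild-type C57 mice. Either population at either age made 1 of the 4 groups, and each group was 1 library of DNA pooled from several animals, so every test below compares 2 libraries and no difference could be set against the spread between mice. By the methods of the study, whole litters went into the P0 pools and reporter-positive offspring into the P21 pools. The reporter allele is known to be silent in a part of the crypts, so EGFP-negative cells can include stem cells. A change in the mixture of cell types and a change within cells cannot be told apart in such pools.

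Libraries held 1023427645 to 1188114423 CpG calls, and 4076373 autosomal 200-bp bins with at least 2 CpGs and 10 calls in every library were compared, at a median of 55 to 81 calls a bin. The windows of the 9 genes, from 5 kb upstream of the start to the end of the gene, held 2419 of these bins, of which 115 lay in CpG islands (CGIs), and their median was 65 to 113 calls. Intervals of levels given below are 95% binomial (Wilson) intervals, those of region differences are 95% normal intervals, and both cover counting error only. These intervals and the tests below take each call as independent. Nearby CpGs can be read on the same DNA molecule, so p-values and intervals can be too small. Promoters of 7 epithelial marker genes had low methylation (median 5.82% to 10.9% over the libraries), and those of 6 immune and 4 endothelial markers had higher medians (75.4% to 79.6% and 64.2% to 71.9%). These lists overlapped: the highest epithelial promoter stood at 45.1% to 51.3% over the libraries, and the lowest immune and endothelial promoters at 28.6% to 39.1% and 28.4% to 38.4%. Promoters of 4 mesenchymal markers were mixed, with medians of 34.1% to 45.7%. A promoter level is not an expression value, so these lists describe the sort only in part.

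A bin was called as a methylation gain or loss when it differed by more than 15 percentage points and passed Fisher's exact test (adjusted p below 0.05 over all autosomal bins). From P0 to P21, ISCs gained methylation in 23 and lost it in 65 of the 2419 bins of these genes. That is 0.951% and 2.69%, where 1.07% and 1.48% of all bins gained and lost. In differentiated cells 36 bins gained and 100 lost, or 1.49% and 4.13%, against 0.992% and 1.86% of all bins. Losses were often shared between the populations, mostly in Ephb3 and Ephb2. Called as losses in both were 48 of the bins, which is 73.8% of the ISC losses and 48% of the losses in differentiated cells, against 45.4% and 36.1% over all bins. Of these shared losses 25 lay in Ephb3 and 17 in Ephb2, and no other gene had more than 2. Another 11 bins gained in both, which is 47.8% of the ISC gains and 30.6% of the gains in differentiated cells, against 23.7% and 25.7% over all bins. Of these shared gains 6 lay in Ephb2 and 5 in Epha2, some of them in neighbouring bins. No bin was called in opposite directions. The comparisons of ISCs and of differentiated cells with age used different libraries, but the methods of the study do not say whether, at each age, ISCs and differentiated cells came from the same mice.

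Most losses lay in a pair of genes. Ephb3 gave 26 of the 65 ISC losses and Ephb2 gave 24. Without Ephb3, 0.983% of 2339 bins gained and 1.67% lost in ISCs. Without Ephb2 and Ephb3, 16 of 1632 bins gained and 15 lost in ISCs, and 24 gained and 19 lost in differentiated cells. In the latter that is 1.16% lost, below all bins, and 1.47% gained, close to the share with these genes. The share of called bins by gene shows that losses were most frequent in Ephb3 and gains in Epha2. Outside Ephb3, Ephb2 and Epha2, Efna1 lost 5.77% of its bins in ISCs and 3.85% in differentiated cells (3 and 2 bins), and Efnb2 and Efnb3 gained 4.86% and 4.65% in differentiated cells (7 and 2 bins).

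**Figure D1:**
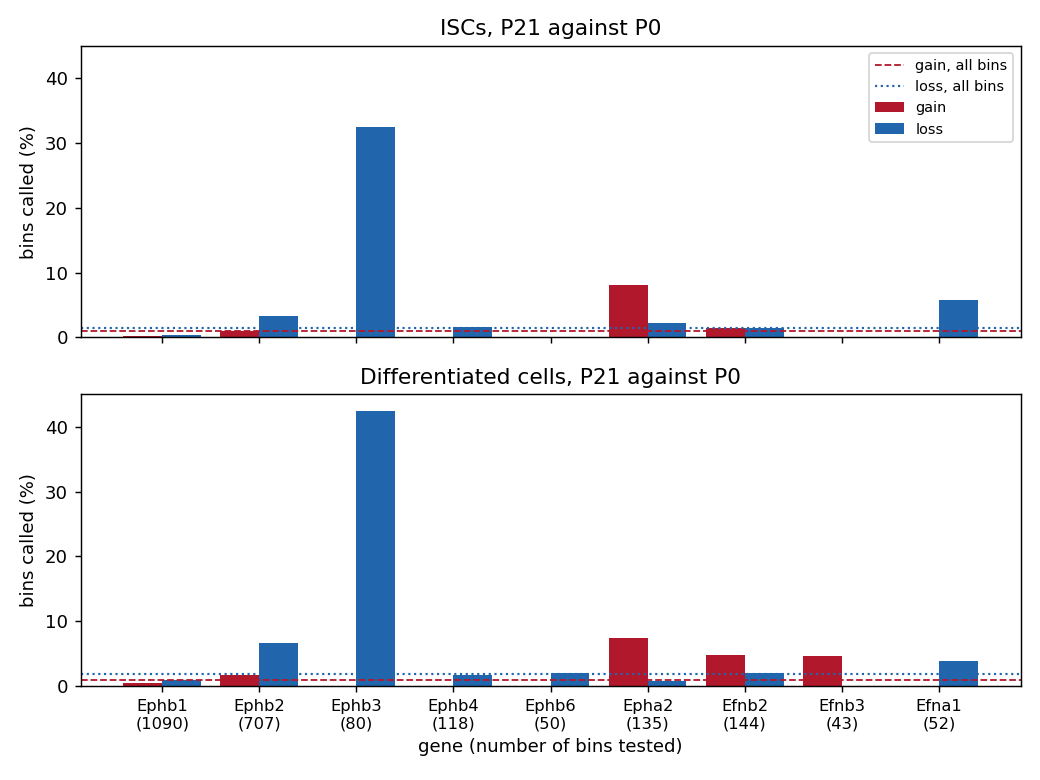
Share of tested 200-bp bins called as gains (red) or losses (blue) from P0 to P21 in each gene, in percent, for ISCs (upper panel) and differentiated cells (lower panel); the number of bins is given under each gene, and dashed and dotted lines mark the shares over all autosomal bins. Ephb3 stands at 32.5% and 42.5% lost, and Epha2 at 8.15% and 7.41% gained.

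Differences between differentiated cells and ISCs of one age were fewer. At P0, 21 bins were called (11 higher and 10 lower in differentiated cells), 0.868% against 0.508% of all bins, and at P21 there were 5, or 0.207% against 0.182%. With calls thinned to the lowest library these counts were 8 and 0, and with bins shifted by 100 bp they were 13 (9 higher and 4 lower) and 5 (all lower). In every library the bins of these genes had more calls than all bins (at P0, medians of 65 and 113 against 55 and 81). Deeper bins are more easily called, here and in the comparisons with age. No share over all bins was computed in thinned calls, and the part of depth was not tested. The change with age differed between the populations in 15 bins, 0.620% against 0.39% of all bins.

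Over whole regions, promoters (1 kb on either side of the start), gene bodies and last exons were compared by the mean of their bin levels, with a Cochran-Mantel-Haenszel test stratified by bin and a limit of 10 points. Of the 27 regions of the 9 genes, 1 was called in ISCs from P0 to P21 and 1 in differentiated cells, in both cases the body of Ephb3, and none was called between differentiated cells and ISCs at P0 or at P21. Over all genes, 4.08%, 3.84%, 0.586% and 0.417% of 54628 regions were called in these comparisons.

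Promoters had little methylation in most of the genes. Over the 4 libraries the promoters of Ephb2, Ephb4, Ephb6, Efnb2 and Efna1 stayed between 0.135% and 1.73%. Those of Ephb1 (6.51% to 8.01%) and Epha2 (8.49% to 10.4%) were a little higher by bin means (at most 3.19% and 5.40% from summed calls), and that of Efnb3 was highest at 25.7% in ISCs and 24.0% in differentiated P0 cells and 27.7% and 30.1% at P21. The median promoter of all genes stood at 21.3% to 21.6%. The Efnb3 promoter rose by 6.16 ± 1.23 points (SE) in differentiated cells, past the adjusted p but under the 10-point limit, and by 1.95 points in ISCs. From summed calls in place of bin means the order was turned, with 3.61 points in differentiated cells and 5.70 points in ISCs. In 7 of the 9 genes no promoter difference with age passed the adjusted p in either population.

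Gene bodies were methylated in every library. At P0 in ISCs the order ran from Ephb6 (85.1% ± 0.762, SE of counting) through Ephb1 (77.3% ± 0.171) and Ephb4 (76.5% ± 0.471) to Ephb2, Efnb2, Epha2 and Ephb3, which lay between 70.9% and 72.5%, and to Efnb3 (57.8% ± 1.64) and Efna1 (56.0% ± 0.839). Neighbours in the group of 4 had overlapping intervals, as had Ephb1 and Ephb4 and also Efnb3 and Efna1. At P21 in ISCs, Epha2 had moved up beside Ephb1 (77.3% and 76.7%) and Ephb3 had moved down beside Efna1 (52.2% and 51.3%). From summed calls Ephb3 stood at 75.4% at P0 and at 61.2% at P21, where Efna1 was at 56.4%. The plot of region levels shows that the remaining bodies kept their level within 5 points in all libraries.

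**Figure D2:**
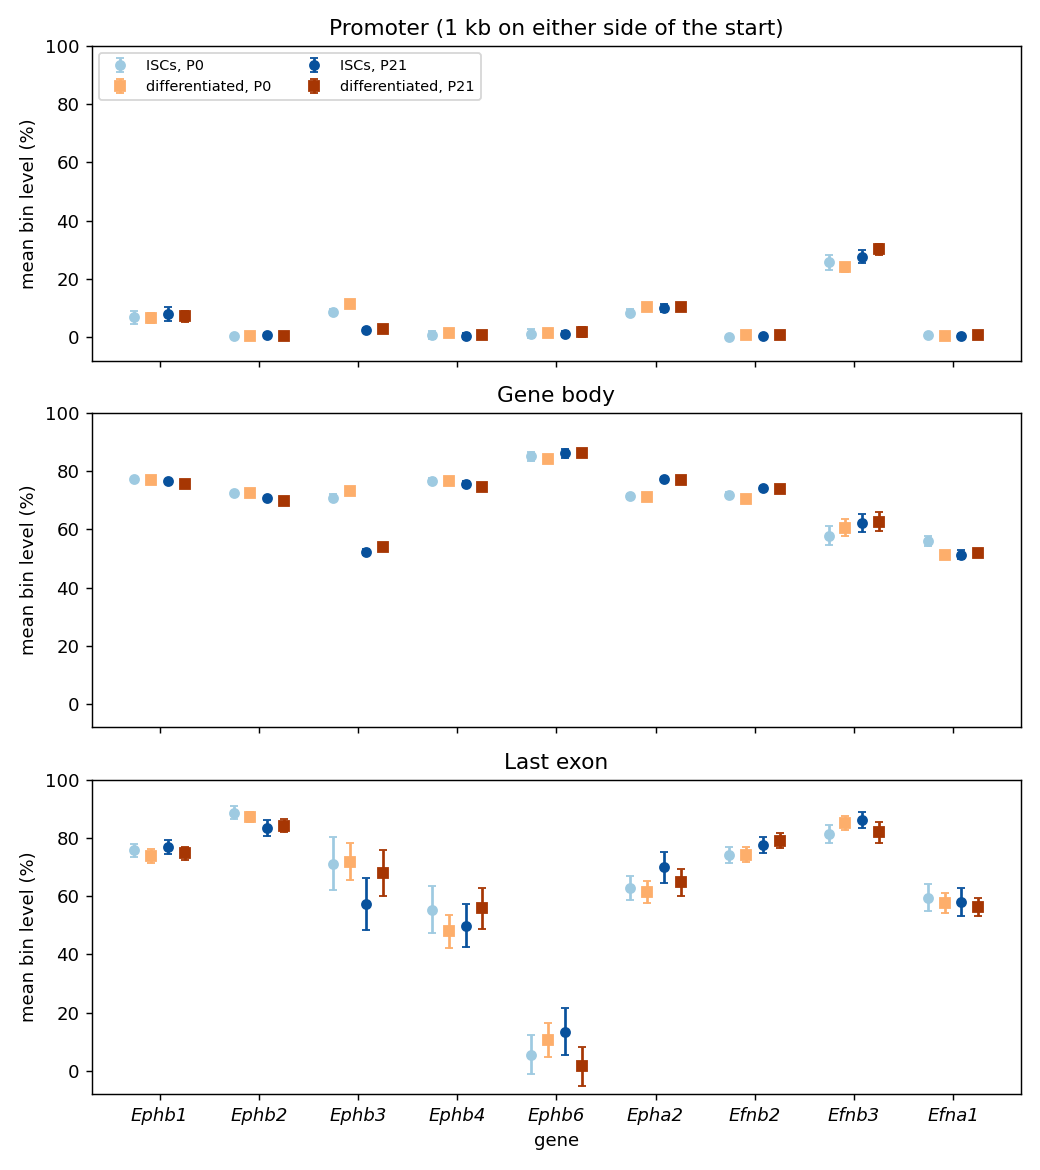
Mean bin methylation level (%) of the promoter, gene body and last exon of the 9 genes, with circles for ISCs and squares for differentiated cells, light for P0 and dark for P21; error bars are 95% intervals from counting calls, not from animals. The body of Ephb3 falls from 70.9% to 52.2% in ISCs and from 73.2% to 53.9% in differentiated cells. Most promoters stay low, and that of Efnb3 lies at 24.0% to 30.1%.

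Last exons rested on few bins, from 2 in Ephb6 to 9 in Ephb2, and no difference passed the adjusted p in any comparison. The last exon of Ephb3 stood at 71.2% and 71.8% at P0 and at 57.4% and 67.9% at P21 (ISCs and differentiated cells, 3 bins). Its ISC difference of -13.8 points was -3.49 points from summed calls and -22.0 points with at least 20 calls a bin. The last exon of Ephb6 was low, at 5.56% and 10.6% at P0 and 13.5% and 1.60% at P21, from 66 to 129 calls. That of Epha2 stood at 62.7%, 61.5%, 69.9% and 64.8% in ISCs and differentiated cells at P0 and then at P21. The interval of the ISC difference was wide in Ephb3 and in Epha2, with a bound of -26.6 points in Ephb3 and a range of 0.361 to 13.9 points in Epha2.

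Ephb3, a Wnt target and the receptor found at the crypt base, had the most change. Its gene (ENSMUSG00000005958.7) runs over 18.6 kb of the plus strand, chr16:21204828-21223378 in mm9. The body level was 70.9% ± 0.649 (SE) in ISCs and 73.2% ± 0.525 in differentiated P0 cells, and 52.2% ± 0.528 and 53.9% ± 0.555 at P21. Both P21 libraries were far below both P0 libraries, and cells of the same age lay close together. The body fell by 18.6 ± 0.837 points (SE of counting) in ISCs and fell by 19.3 ± 0.764 points in differentiated cells, past the adjusted p and the limit in both. Among 17505 gene bodies only 79 in ISCs and 57 in differentiated cells, Ephb3 included, had a change this low.

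The losses of Ephb3 were on either side of an unmethylated start. Within 500 bp of the start, 5 CGI bins had mean levels of 0.382%, 0.276%, 0.828% and 0.411% in ISCs and differentiated cells at P0 and then at P21. In the promoter as a whole the level was 8.76% and 11.3% at P0 and 2.49% and 2.70% at P21, so that it fell by 6.27 ± 0.659 points (SE) in ISCs and fell by 8.59 ± 0.604 points in differentiated cells, past the adjusted p but under the 10-point limit. Upstream, 10 bins had a mean of 42.6% in ISCs and 52.6% in differentiated P0 cells and of 16.0% and 17.6% at P21, with 5 of them called in ISCs and 7 in differentiated cells. From the upstream end of the window to 11 kb past the start, a boundary set after the values were seen, 26 of 53 bins lost methylation in ISCs and 33 in differentiated cells. The median level of these bins was 45.7% and 53.3% at P0 and 5.30% and 10.9% at P21. Beyond that point, most of 27 bins stayed high, with means of 87.5% in both populations at P0 and of 83.5% and 84.7% at P21, although the lowest bins at P21 were at 9.09% and 30.9%, and of these 27 bins 1 was called, in differentiated cells.

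**Figure D3:**
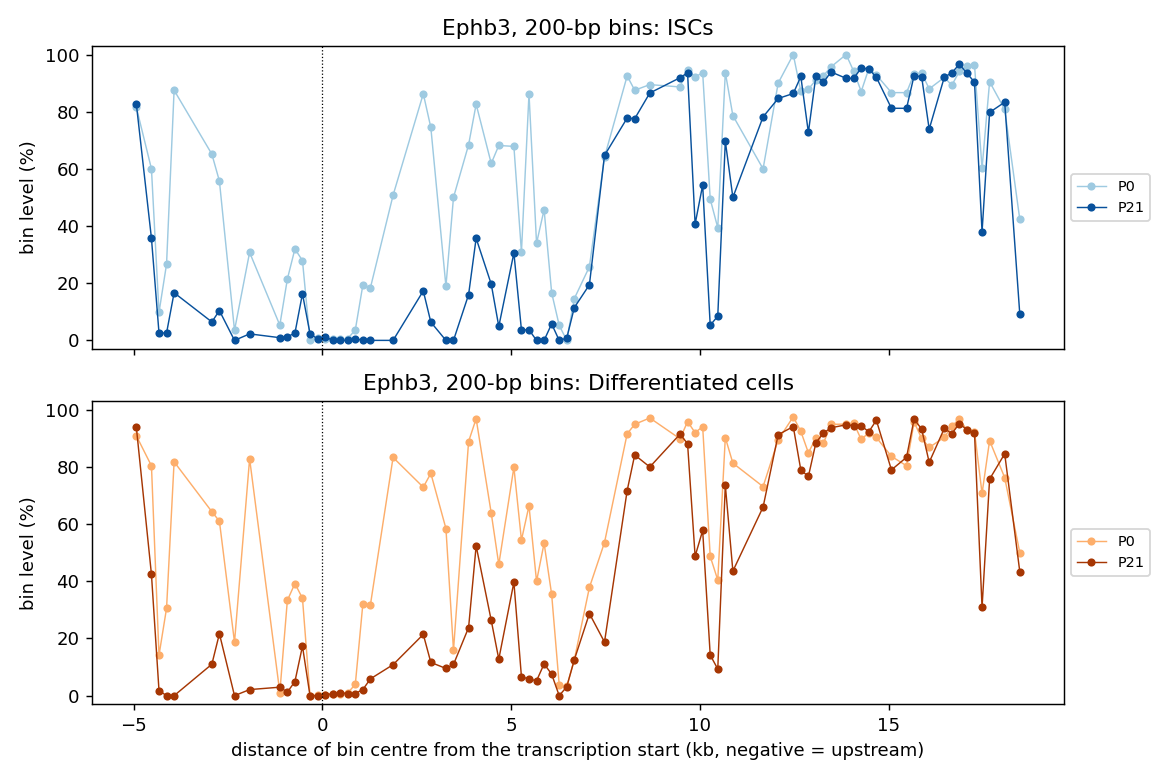
Methylation level (%) of each tested 200-bp bin of Ephb3 against the distance of its centre from the transcription start (kb), at P0 (light) and P21 (dark) in ISCs (upper panel) and differentiated cells (lower panel). The P21 line runs below the P0 line on both sides of the start to 11 kb, and the lines run close together at the start and in most bins beyond 11 kb.

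The longest run of called bins in any of the 9 genes lay in intron 1 of Ephb3, at chr16:21208601-21211000, where all 10 tested bins with 33 CpGs lost methylation in differentiated cells. The level over this run was 52.9% (interval 48.3% to 57.5%, 448 calls) in ISCs and 60.8% (57.8% to 63.7%, 1025 calls) in differentiated P0 cells. At P21 it was 11.9% (520 calls) and 15.5% (interval 13.2% to 18.2%, 798 calls). In ISCs, 8 of these bins were called, and the longest ISC run, chr16:21209201-21210800, lies inside it with 7 of 7 bins called and levels of 55.7%, 60.9%, 10.8% and 15.2% in the same order of libraries. No annotated exon falls in it.

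Further along, exon 3 and intron 3 held a run of 6 bins with 42 CpGs, chr16:21214601-21215800, called in both populations and named after its values were seen. It went from 77.8% to 39.9% in ISCs and from 83.4% to 46.5% in differentiated cells. Of its bins, 3 lay in a CGI. The sequences below are the centre of the intron 1 run, the bin of largest ISC loss and the lost bin with the most CpGs. The last pair was chosen after the values were seen. They are the plus strand of mm9, and capitals mark CpGs.
Ephb3 intron 1, chr16:21209651-21209950: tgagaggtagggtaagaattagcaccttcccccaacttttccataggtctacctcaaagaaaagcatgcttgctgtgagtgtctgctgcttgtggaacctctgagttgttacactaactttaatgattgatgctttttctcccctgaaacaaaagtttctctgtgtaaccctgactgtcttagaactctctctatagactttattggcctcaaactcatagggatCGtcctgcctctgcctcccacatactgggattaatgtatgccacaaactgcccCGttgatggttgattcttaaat
Ephb3 intron 1, chr16:21210201-21210400: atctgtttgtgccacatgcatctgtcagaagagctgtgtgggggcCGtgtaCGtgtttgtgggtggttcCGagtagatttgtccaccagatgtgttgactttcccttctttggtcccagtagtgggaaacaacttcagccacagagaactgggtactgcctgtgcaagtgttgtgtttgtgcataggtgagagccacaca
Ephb3 exon 3, chr16:21214601-21214800: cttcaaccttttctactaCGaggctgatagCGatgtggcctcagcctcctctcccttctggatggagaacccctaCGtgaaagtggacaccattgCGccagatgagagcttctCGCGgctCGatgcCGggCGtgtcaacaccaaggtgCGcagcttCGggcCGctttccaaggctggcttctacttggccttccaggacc

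The intron 1 sequences are poor in CpGs, with 2 in 300 bases and 3 in 200. In the former, the CpG at position 279 from the left stood at 69.6% in ISCs and 93.6% in differentiated P0 cells and at 22.2% and 30% at P21, from 18 to 47 calls. In the latter, the 3 CpGs together stood at 86.3% (51 calls) and 66.4% (131 calls) at P0 and at 3.70% (54 calls) and 5.83% (120 calls) at P21, which made it the bin of largest loss in ISCs (-82.6 points, adjusted p = 2.52e-16 by Fisher's exact test). These 3 CpGs lie close together and had 16, 18 and 17 calls in ISCs at P0. The 51 calls cannot be taken as independent, so this p-value can be too small. The exon 3 sequence is coding and has 12 CpGs. Its level was 92.1% in ISCs and 92.0% in differentiated P0 cells, and 40.7% and 48.8% at P21. Of its 12 CpGs, 11 were lower at P21 in ISCs and 12 in differentiated cells. The loss was uneven along it: the CpG at position 31 stood at 92% and 89.7% at P0 and at 96.6% and 87.3% at P21, while that at position 114 went from 100% and 96.2% to 17.4% and 31.0%.

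At P0, 4 bins of Ephb3 were more methylated in differentiated cells than in ISCs. The largest such difference was upstream, at chr16:21202801-21203000, where ISCs stood at 30.8% (interval 18.6% to 46.4%, 39 calls) and differentiated cells at 82.9% (72.4% to 89.9%, 70 calls). At P21 the bin was at 2.27% and 2.13%. It was the only bin of Ephb3 in which the change with age differed between the populations, by -52.2 points.

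Ephb2, the other Wnt-dependent receptor of the crypt base (ENSMUSG00000028664.8, minus strand, chr4:136203454-136391903), is a gene of 188.4 kb with 707 bins. Its mean level moved little, from 72.5% to 70.6% in ISCs and from 72.4% to 69.8% in differentiated cells over the body, and the ISC change of -1.92 points was -1.05 from summed calls. Called losses were nevertheless frequent, with 24 (3.39%) in ISCs and 47 (6.65%) in differentiated cells. There were 7 gains (0.990%) in ISCs, near the 1.07% of all bins, and 12 (1.70%) in differentiated cells, against 0.992% of all bins. Of the called bins, 17 losses and 6 gains were called in both populations. Losses were denser near the start: from the upstream end of the window to 40 kb past the start, a boundary set after the values were seen, 8.20% of 183 bins lost methylation in ISCs and 16.9% in differentiated cells. Over the other 524 bins 1.72% and 3.05% did.

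The longest Ephb2 run in differentiated cells lay in intron 1, 1571 to 2971 bp past the start, chr4:136388801-136390400, with 7 of 8 bins called. Its level was 42.5% (interval 38.7% to 46.4%) in ISCs and 43.4% (40.8% to 46.1%) in differentiated P0 cells, and 16.3% (13.5% to 19.4%) and 13.9% at P21. Only 3 of these bins were called in ISCs, whose level over the run fell by 26.2 points. The longest run in ISCs was farther into the same intron, chr4:136359001-136360200, at 74.2% and 75.5% at P0 and at 52.1% and 57.1% at P21, with 4 of 6 bins called in each population. Upstream, with its centre at -2229 bp from the start, the bin chr4:136394001-136394200 was the largest loss of the gene and was named after its values were seen. It stood at 56.9% and 58.2% at P0 and at 8.72% and 7.76% at P21. Between the populations, 5 bins were called at P0 and none at P21. The single bin that was lower in differentiated cells, chr4:136368601-136368800 in intron 1, stood at 94.6% (37 calls) in ISCs and 53.1% (49 calls) in differentiated P0 cells, and at 66.7% and 55.6% at P21.

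**Figure D4:**
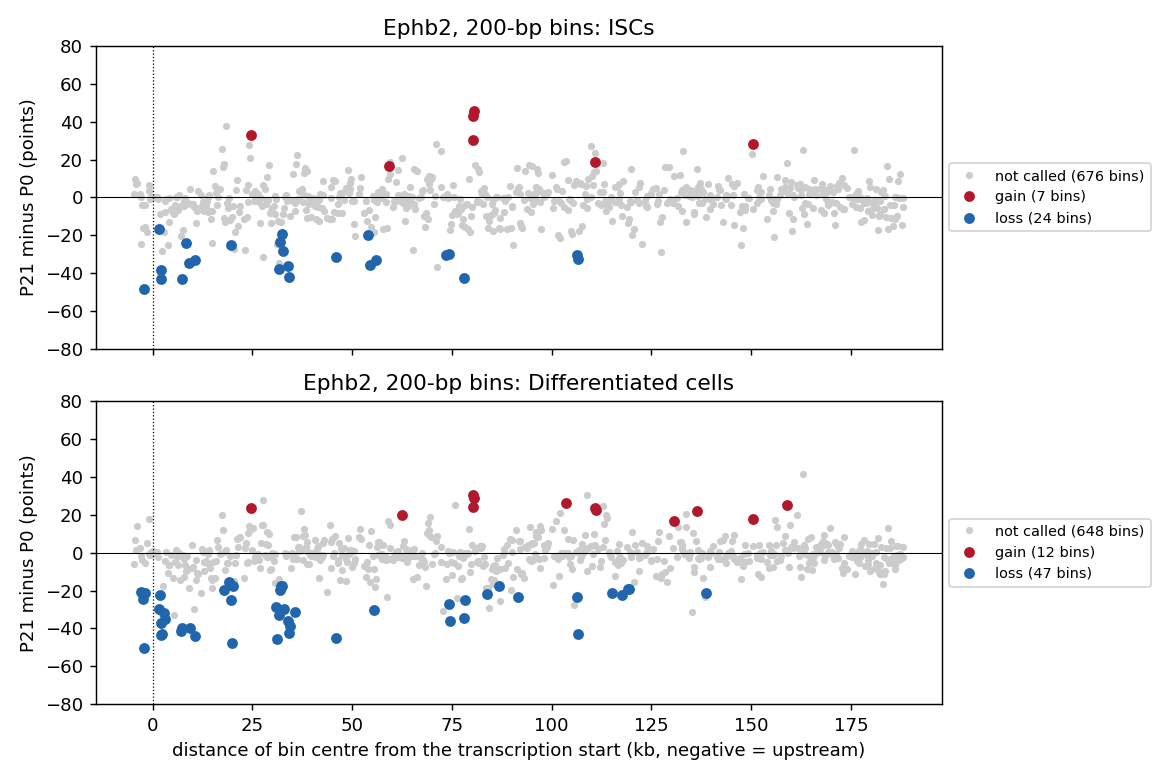
Difference P21 minus P0 in percentage points for each tested 200-bp bin of Ephb2 against the distance of its centre from the transcription start (kb), for ISCs (upper panel) and differentiated cells (lower panel); red marks called gains, blue called losses and grey the other bins. Losses are denser in the first 40 kb, and a group of 3 gained bins stands 80171 to 80571 bp into the gene in both panels.

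Gains in Ephb2 were led by a CGI in intron 3, chosen after its values were seen. The 3 bins of chr4:136311201-136311800, with 38 CpGs, gained methylation in both populations. They stood at 19.7% (interval 16.7% to 23.0%, 609 calls) in ISCs and 25.5% (23.5% to 27.7%, 1649 calls) in differentiated P0 cells, and at 56.5% (52.6% to 60.3%, 637 calls) and 54.0% (51.2% to 56.8%, 1196 calls) at P21. Losses outnumbered gains more near the start than farther in. Up to 40 kb past the start, 1 bin gained and 15 lost in ISCs, and 1 gained and 31 lost in differentiated cells. Beyond that point 6 gained and 9 lost in ISCs, and 11 gained and 16 lost in differentiated cells. The bins that follow were named after their values were seen. Also in intron 3, chr4:136313601-136314000 changed by -33.1 points in ISCs and -33.3 points in differentiated cells. In intron 1 the bin chr4:136367201-136367400, the only called gain within 40 kb past the start, gained 33.2 and 23.5 points. The middle bin of the 3 CGI bins is printed below as the gained bin with the most CpGs (plus strand of mm9, opposite to the gene, with CpGs in capitals).
Ephb2 intron 3, chr4:136311401-136311600: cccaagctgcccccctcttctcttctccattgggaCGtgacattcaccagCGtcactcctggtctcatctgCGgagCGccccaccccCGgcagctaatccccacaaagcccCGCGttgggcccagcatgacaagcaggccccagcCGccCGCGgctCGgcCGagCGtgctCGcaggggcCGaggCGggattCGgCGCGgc

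This bin has 19 CpGs in 200 bases. All 19 were higher at P21 than at P0 in ISCs and in differentiated cells, although single CpGs had as few as 6 calls in ISCs at P0. The bin as a whole went from 14.2% to 57.3% in ISCs and from 19.8% to 50.2% in differentiated cells.

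Epha2, a receptor of type A ephrins that is widely expressed in epithelia (ENSMUSG00000006445.3, plus strand, chr4:140857155-140885299), moved the other way. Its body stood at 71.3% ± 0.485 (SE) in ISCs and 71.3% ± 0.386 in differentiated P0 cells and at 77.3% ± 0.437 and 76.8% ± 0.404 at P21. The gain was 5.97 ± 0.652 points in ISCs and 5.57 ± 0.559 points in differentiated cells, both past the adjusted p and under the 10-point limit. From summed calls in place of bin means it was 3.49 and 3.23 points. Of 135 bins, 11 gained and 3 lost methylation in ISCs and 10 gained and 1 lost it in differentiated cells, with 5 gains called in both.

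Most Epha2 gains lay between 4 and 10 kb past the start, a stretch outlined after its values were seen, where 8 of 25 bins were called in ISCs and 6 in differentiated cells. The mean of these 25 bins rose from 69.9% to 84.8% in ISCs and from 67.3% to 82.1% in differentiated cells. The longest run was in intron 3, chr4:140865801-140867000, with 5 of 6 bins called in ISCs and 3 in differentiated cells. Its level was 53.4% (interval 49.5% to 57.2%) and 60.6% (57.8% to 63.4%) at P0 and 82.3% (79.4% to 84.9%) and 81.6% (79.3% to 83.8%) at P21, in ISCs and differentiated cells. In exon 3 a CGI bin, chr4:140864401-140864600, was lower in differentiated cells than in ISCs at P0 (31.2% and 48.4%) and stood at 51.5% and 64.4% at P21. With bins shifted by 100 bp the P0 difference was -10.0 points in place of -17.1. Of the 3 ISC losses, 2 were upstream and 1, named after its values were seen, was 3145 bp past the start (29.2% to 3.39%). The upstream bin chr4:140853601-140853800, named after its values were seen, went from 45.4% to 8.74% in ISCs and from 40.4% to 10.2% in differentiated cells.

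The centre of the intron 3 run, shown as the longest run of gains, has 3 CpGs in 300 bases (plus strand of mm9, CpGs in capitals). It held only 17 to 39 calls a library, at 12.8% and 33.3% at P0 (ISCs, then differentiated cells) and 58.3% and 52.9% at P21, so the run rests on the CpGs on either side of it.
Epha2 intron 3, chr4:140866251-140866550: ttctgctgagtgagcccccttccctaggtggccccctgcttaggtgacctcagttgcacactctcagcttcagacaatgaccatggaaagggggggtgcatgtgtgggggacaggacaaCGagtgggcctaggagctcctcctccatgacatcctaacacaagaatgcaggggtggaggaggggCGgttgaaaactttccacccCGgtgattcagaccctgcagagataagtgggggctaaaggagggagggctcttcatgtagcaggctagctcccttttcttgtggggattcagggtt

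**Figure D5:**
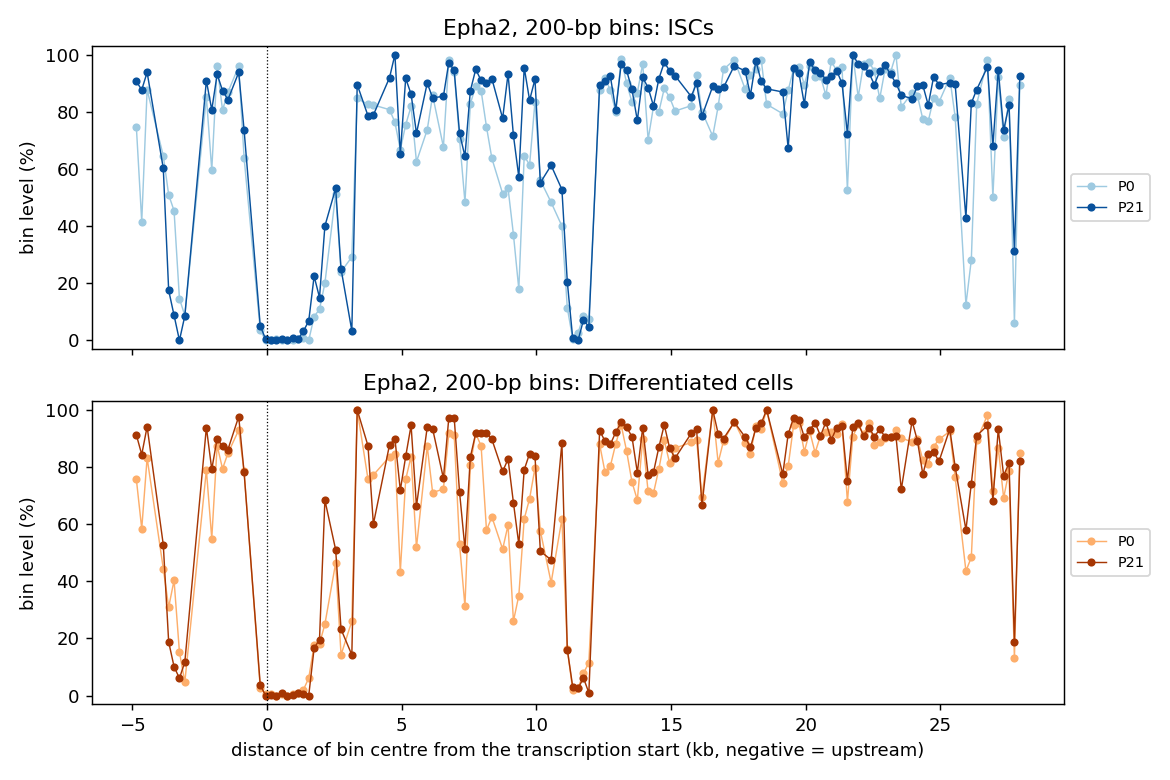
Methylation level (%) of each tested 200-bp bin of Epha2 against the distance of its centre from the transcription start (kb), at P0 (light) and P21 (dark) in ISCs (upper panel) and differentiated cells (lower panel). Between 4 and 10 kb the P21 line runs above the P0 line in all but 3 bins in ISCs and in every bin in differentiated cells, and around the start all 4 libraries lie at the bottom of the axis.

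Among the ligands, Efnb2, the transmembrane partner of EphB receptors in the upper crypt (ENSMUSG00000001300.8, minus strand, chr8:8617434-8661239), had changes of either sign in its introns. Its body rose from 71.9% to 74.2% in ISCs and from 70.5% to 73.7% in differentiated cells, and from summed calls the ISC rise was 0.967 points in place of 2.31. It had 2 gains and 2 losses among 144 bins in ISCs and 7 gains and 3 losses in differentiated cells. In intron 2 the bins of chr8:8623401-8624000 stood at 39.2% and 37.3% at P0 and at 6.58% and 8.63% at P21, with 2 of 3 bins lost in both populations. In intron 1, chr8:8656001-8657000 rose from 61.1% (interval 58.1% to 64.0%) to 82.9% (80.2% to 85.3%) in differentiated cells, with 4 of 4 bins called. The ISC levels there were 71.7% and 83.5%, and no bin of it was called in ISCs.

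Efnb2 also held the only bin of the 9 genes that was called in the same direction between the populations at both ages. At chr8:8629401-8629600, in intron 2, ISCs stood at 20% (interval 14.7% to 26.6%, 170 calls) and differentiated cells at 64.9% (59.2% to 70.2%, 285 calls) at P0. At P21 they stood at 29.3% (23.1% to 36.3%, 181 calls) and 50.2% (44.0% to 56.4%, 249 calls). The difference was 44.9 points at P0 (adjusted p = 2.26e-16, Fisher's exact test) and 20.9 points at P21 (adjusted p = 0.0146). It has 3 CpGs. With bins shifted by 100 bp the differences were 22.5 and 20.9 points. With calls thinned to the lowest library they were 46.5 and 17.1 points, and no bin of the 9 genes was then called between the populations at P21.

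Efna1, the ligand of Epha2 with a lipid anchor (ENSMUSG00000027954.3, minus strand, chr3:89075655-89085064), had 52 bins, of which 3 lost methylation in ISCs and 2 in differentiated cells. The run chr3:89079801-89080200, over exon 2 and intron 2, stood at 74.5% in ISCs and 72.0% in differentiated P0 cells and at 29.4% and 45.1% at P21. Its bin from 89080001 was called in both populations, at 86.7% and 83.4% and then 33.6% and 47.9%. Its bin from 89079801 was lower in differentiated cells than in ISCs at P0 (24.0% and 59.8%), and at P21 the levels were 34.2% and 22.9%. The P0 difference was -35.8 points, or -20 with bins shifted by 100 bp. The body of Efna1 differed between the populations at P0 by -4.81 ± 1.14 points, past the adjusted p, but from summed calls the difference was 0.607 points, of the other sign. Efnb3, a type B ephrin (ENSMUSG00000003934.5, minus strand, chr11:69367594-69373707), had 2 gains among 43 bins in differentiated cells and none in ISCs. The larger was chr11:69375201-69375400, upstream of the start and within the neighbouring gene Wrap53, at 41.7% at P0 and 71.5% at P21 in differentiated cells and at 50.4% and 58.7% in ISCs.

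Ephb1 had few bins called with age for its length, and Ephb4 and Ephb6 had no more than 2 in either population. Ephb1, a receptor best known from the nervous system (ENSMUSG00000032537.8, minus strand, chr9:101824458-102257023), is the longest of the genes, with 1090 bins, of which 0.734% were called in ISCs and 1.38% in differentiated cells between P0 and P21. In ISCs 0.275% gained and 0.459% lost, against 1.07% and 1.48% of all bins. In differentiated cells 0.459% gained and 0.917% lost, against 0.992% and 1.86%. No bin of Ephb1 was called with age in both populations. Its called bins stood alone, such as chr9:101999401-101999600 in intron 3, which was at 92.9% in ISCs and 67.9% in differentiated P0 cells and at 44.4% and 87.7% at P21, from 27 to 78 calls. Another, chr9:102072601-102072800, also in intron 3, rose from 40.5% to 78.4% in differentiated cells and stood at 70% and 65.5% in ISCs. In intron 1, chr9:102220001-102220200 stood at 100% in ISCs and 60.6% in differentiated P0 cells, and at 100% and 91.5% at P21; its P0 difference of -39.4 points was -20.1 with bins shifted by 100 bp.

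Ephb4, the receptor of Efnb2 that is best known from veins (ENSMUSG00000029710.9, plus strand, chr5:137791337-137819897), had 2 losses among 118 bins in each population. That is 1.69%, near the 1.48% of all bins lost in ISCs and the 1.86% in differentiated cells. The upstream bin chr5:137789601-137789800 was called in both, at 29.9% and 38.8% at P0 and at 4.32% and 6.25% at P21. With bins shifted by 100 bp its differences of -25.6 and -32.5 points became -9.88 and -9.89 points. Ephb6, which lacks kinase activity (ENSMUSG00000029869.6, plus strand, chr6:41555481-41570508), had no called bin in ISCs. In differentiated cells 1 of 50 bins fell, chr6:41570001-41570200 near the gene end, from 91.7% (36 calls) to 50% (26 calls), and the ISC levels there were 73.1% and 79.2%. A single bin is 2% of this gene, near the 1.86% of all bins lost in differentiated cells.

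Bins called as ISC losses or gains were picked by their change in these same ISC libraries. Their ISC change therefore follows from the choice, and a smaller change in differentiated cells does not show a difference between the populations. Over the bins called as ISC losses, the mean level was 59.9% in ISCs at P0 and 22.5% at P21, and 59.2% and 27.7% in differentiated cells. Of these 65 bins, 61 were lower at P21 in differentiated cells too, where 50.4% of all bins were lower. Ephb3 gave 26 of the 65 and Ephb2 gave 24, many of them in neighbouring bins. The same count was not made for the ISC losses of all genes. The 23 ISC gains had means of 46.4% and 76.8% in ISCs and of 52.7% and 68.8% in differentiated cells, where 3 were lower at P21. CGI bins of the genes had 4 gains and 4 losses among 115 in ISCs (3.48% each) and 6 and 4 in differentiated cells (5.22% and 3.48%). In both populations the losses all lay in Ephb3 and the gains in Ephb2 and Epha2, several of them in neighbouring bins. Over all CGI bins 1.37% gained and 0.392% lost in ISCs, and 1.21% and 0.327% in differentiated cells. Most CGI bins of the 9 genes were unmethylated, with medians of 0.763% to 1.29% over the libraries.

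Other members of the family were looked at through 12 further autosomal genes, Epha1, Epha3 to Epha8, Epha10 and Efna2 to Efna5, which gave 38 regions. The X-linked type B ephrin Efnb1 was not analysed here. From P0 to P21, 1 of them was called in ISCs and 1 in differentiated cells, in both cases a gain in the last exon of Efna3, a type A ephrin, from 47.5% to 62.0% and from 38.4% to 61.1%. Among 66 regions of 22 signalling partners of Eph receptors (adaptors, exchange factors, kinases and proteases, with the Wnt effectors Ctnnb1 and Tcf7l2), none was called in ISCs and 1 in differentiated cells. That was the promoter of Ctnnb1, which encodes β-catenin, at 15.9% and 4.36% in differentiated cells and 12.6% and 6.02% in ISCs. The calls are 2.63% of the 38 regions in each population and 1.52% of the 66 regions in differentiated cells. Over all genes 4.08% of regions were called in ISCs and 3.84% in differentiated cells. No region of either list was called between the populations at either age.

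By the root mean square difference over 12 values (3 regions in 4 libraries), the nearest Eph or ephrin gene to Ephb2 was Epha4, at 3.13 points, and Ephb1 and Efnb2 were nearest to each other, at 4.86 points. Ephb3 and Efna1 were also nearest to each other but at 10.7 points. Of 15254 protein-coding genes with all 12 values, Abhd11 (4.84 points), Slc25a42 (5.14 points) and Adat3 (5.46 points) were nearest to Ephb3.

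Marker genes of the epithelium moved with age as well. Of 21 regions of the 7 epithelial markers, 6 were called in ISCs and 7 in differentiated cells, of which 5 and 6 were losses. That is 28.6% and 33.3%, against 4.08% and 3.84% of the regions of all genes. In each population 1 of these losses was a promoter. The gain was in both populations the last exon of the keratin gene Krt20, from 26.2% to 50.6% and from 24.1% to 54.7%. The body of Epcam fell from 60.8% to 48.0% in ISCs and from 60.6% to 49.0% in differentiated cells, and that of another keratin gene, Krt8, from 56.9% to 46.4% and from 57.9% to 44.3%. Of 12 regions of 4 stem cell markers 1 was called in ISCs and 2 in differentiated cells. The body of Axin2, the only 1 of the 4 bodies that was called, fell from 70.4% to 52.7% and from 71.2% to 54.5%. The median change of the 4 bodies was -0.58 and -0.52 points. The other call was a loss in the last exon of Ascl2 in differentiated cells. Of 18 immune regions none was called in ISCs and 1 in differentiated cells, the promoter of Ptprc, from 75.0% to 62.1%. Of 12 endothelial regions 1 was called, a gain in ISCs in the last exon of Tek. Of 12 mesenchymal regions 1 was called, a loss in differentiated cells in the promoter of Col3a1, which had 1 bin. In the stem cell, immune, endothelial and mesenchymal lists 1 region is 5.56% to 8.33% of a list, so their shares cannot be set apart from those of all genes. The part of a changed mixture of cells in the values of Ephb3, Ephb2 and Epha2 was not tested.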

How the data were processed

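Each library was WGBS of DNA pooled from several mice. The authors trimmed reads and mapped them to mm9 with Bismark, with Bowtie also named in the submitters' processing notes (no version and no removal of duplicates is given in the sources read here, and p-values and intervals would be too small if duplicates remained). They deposited counts of all and of methylated calls per CpG cytosine. The deposited fraction was not used.

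Here both strands were summed at reference CpGs (leaving out the 0.469% to 0.860% of autosomal positions that were at none), and calls were summed in 200-bp bins from multiples of 200. Bins needed 2 CpGs and 10 calls in all 4 libraries. The bin size and the CpG minimum are those of the study, which used a 15-point limit for regions assigned to genes. Two-sided Fisher's exact tests were adjusted (Benjamini-Hochberg) over all autosomal bins. The level of a region was the mean of its bin levels, with a two-sided Cochran-Mantel-Haenszel test stratified by bin, adjusted over all genes of a region type and limited at 10 points. Bodies excluded the promoter and the last exon. The difference of 2 changes was tested by a two-sided z test with 1 methylated and 1 unmethylated call added. Runs joined called bins of a direction with at most 1 uncalled bin between them. A CGI was a union of 500-bp windows with 25 CpGs. Genes followed GENCODE M1 (mm9), using for each gene the transcript with the longest coding sequence. The symbol Efna5 matched more than 1 gene identifier there, and all were kept.

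All 9 genes were named. Stretches were named by a rule: in each gene and comparison the run with the most called bins or, with no run, the called bin of largest difference. Stretches outside the rule are marked as chosen or named after their values were seen, apart from the bins with unequal change, which are all listed. Single CpGs within the printed sequences were also picked after their values were seen. The genes, lists and tests were chosen with earlier results of these data known. The procedure was tested on simulated data. Alternatives were other minima of calls and CpGs, other limits, thinned calls, shifted bins, a maximum of calls, summed calls and a narrower promoter. Python 3.11.15, numpy 2.4.6, scipy 1.17.1 and pandas 2.3.3 were used.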

Additional observations from a re-analysis of the deposited data

Results flagged for a closer look

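In 15 bins of these genes the change from P0 to P21 differed between differentiated cells and ISCs, by a z test of the difference itself (adjusted over all autosomal bins). The values below are the change in differentiated cells minus the change in ISCs, in percentage points, and rest on 1 library for each group. Of these differences 6 were positive and 9 negative. With bins shifted by 100 bp none was positive and 11 were negative, and the split was 1 and 7 with at least 4 CpGs a bin and 1 and 5 in thinned calls.

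Ephb1 had 6 such bins, all in its body on chromosome 9. The differences were 36 points at 101866601, -38.6 points at 101988401, 68.2 points at 101999401, -38.3 points at 102061801, -62.6 points at 102218001 and 26.9 points at 102239801. At 101988401, the bin with the smallest adjusted p (3.30e-05), ISCs rose from 37.3% to 67.3% and differentiated cells stood at 52.4% and 43.8%.

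Ephb2 had 4 on chromosome 4, with -19.9 points at 136332601, -24.2 points at 136358801, 59.2 points at 136364001 and -15.5 points at 136372601. At 136358801 and 136372601 differentiated cells were above ISCs at P0 (35.8% and 15.1%, then 23.2% and 5.30%) and fell to 5.96% and 7.53%.

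Ephb3 had 1, the upstream bin at 21202801 of chromosome 16, with -52.2 points. Ephb4 had 1, past the end of its longest coding transcript at 137818401 of chromosome 5, with -20.2 points. Efnb2 had 2 on chromosome 8, with -24 points at 8629401 and 27.7 points at 8650601. Efna1 had 1 at 89079801 of chromosome 3, with 47.1 points, where ISCs fell from 59.8% to 22.9% and differentiated cells stood at 24.0% and 34.2%.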

How the results depend on the processing

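No paired analysis was possible because each group had 1 library and the labels carry no replicate numbers; the populations, which are different cells, were not taken as pairs. With 1 library a group, none was left out. The counts of called bins were 88 (ISCs with age), 136 (differentiated cells with age), 21 (populations at P0), 5 (populations at P21) and 15 (unequal change). They stayed within 1.5 times of these values with a minimum of 20 calls and with CpGs over 200 calls left out. With at least 4 CpGs a bin they were 51, 76, 12, 6 and 8. With calls thinned to the lowest library they were 63, 84, 8, 0 and 6. With bins shifted by 100 bp they were 100, 146, 13, 5 and 11. With more than 30 points they were 56, 66, 10, 1 and 8. With more than 15 points and no test, the first 4 were 362, 328, 234 and 201. Losses outnumbered gains with age in both populations under each of these settings, for example by 51 to 12 and 67 to 17 in thinned calls.

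Called regions were 1, 1, 0 and 0. In differentiated cells with age the count became 2 with a minimum of 20 calls and with at least 4 CpGs (adding the last exon of Ephb3) and 2 with shifted bins (adding a gain in the last exon of Ephb4). With more than 5 points the counts were 3 in ISCs (adding the Ephb3 promoter and the Epha2 body) and 4 in differentiated cells (adding the Efnb3 promoter too). The Ephb3 body was called under every setting run, and it fell in each. Between the populations at P21 the balance of 2 gains and 3 losses became 1 and 0 with more than 30 points and 0 and 5 with shifted bins, and at P0 that of 11 and 10 became 9 and 4 with shifted bins. Several differences under the limit changed sign. The Ephb3 promoter, counted 500 bp on either side of the start, gave 0.446 and 0.135 points with age. From summed calls the Efna1 body gave -5.58 points in place of 0.638 in differentiated cells with age, 0.607 in place of -4.81 between the populations at P0 and -2.55 in place of 0.492 at P21. Between the populations, summed calls gave -2.07 points in place of 2.54 for the Ephb3 promoter and -2.36 in place of 1.94 for the Epha2 promoter at P0, and -2.26 in place of 2.47 for the Efnb3 promoter at P21. Of the region differences, 24 moved beyond their counting interval from summed calls and 84 did not. Of 24 stretch differences, 24 moved by less than their counting interval in thinned calls, and with shifted bins 12 did, 7 moved and the others gave no value. The upstream Ephb4 bin was among these, falling by 9.88 and 9.89 points with shifted bins. The cause was not tested.

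Depth limits bins of intermediate level most. At 55 to 81 calls a bin, differences of 15 points, and also clearly larger ones, were often not detectable. An uncalled bin is not shown to be equal.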
